A study of Canis lupus familiaris with 18 samples.

Results

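The genes described here are 9 that are known for heat production in fat and for its adrenergic control: UCP1, UCP2, UCP3, PRDM16, PPARGC1A, DIO2, EBF2, ADRB1 and ADRB3. All probe sets of a canine Affymetrix array whose only gene symbol in the platform annotation is 1 of these were taken. On this platform several short probes per transcript are read together as a probe set. The rule found 13 probe sets for 8 of the 9 genes, out of 42924 that are not array controls, and the annotation used here listed none under ADRB3. Where a gene has several, they are numbered in brackets, as in UCP2 (1) and UCP2 (2).

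Brown and beige fat cells burn fatty acids for heat. Noradrenaline from sympathetic nerves binds beta-adrenergic receptors on the cell, the receptors raise cyclic AMP, and the signal frees fatty acids and switches on UCP1, an inner mitochondrial membrane protein that lets protons leak back so that respiration yields heat in place of ATP. The transcription factors EBF2 and PRDM16 set brown and beige identity in mice, PGC-1alpha (PPARGC1A) drives the making of mitochondria, and the deiodinase DIO2 turns thyroxine into active thyroid hormone inside the cell. White fat, the main type in the adult depots sampled here, stores triglyceride and normally makes little UCP1.

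The series measured RNA in 2 fat depots of 9 intact female beagles, 4 years old, all fed Purina Pro Plan Performance Formula. For 24 weeks 5 dogs ate ad libitum and became obese, and 4 control dogs were fed to keep their body weight and stayed lean. Gonadal and subcutaneous adipose tissue came from the same dogs after an overnight fast, so the 18 arrays form 4 groups: 5 gonadal ad libitum, 4 gonadal control, 5 subcutaneous ad libitum and 4 subcutaneous control. No dog was in both feeding groups. Dogs 2, 5, 6, 7 and 8 were fed ad libitum, and dogs 1, 3, 4 and 9 were controls. According to the labels the subcutaneous arrays had been part of another submission, which is not said of the gonadal arrays. Depot and a possible array batch therefore cannot be told apart.

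The values are on the log2 scale, and log2 4 is used as the floor of measurement. In each array 47.2% to 49.0% of probe sets reached it, and the array medians lay between 3.65 and 3.87. The tissue label held: 15 of 16 adipocyte markers were at or above the floor in all 18 arrays. Not all arrays held fat alone. Skeletal muscle transcripts stood high in the subcutaneous arrays of control dogs 3 and 4 and in the gonadal array of ad libitum dog 2, where the mean of 38 muscle markers was 8.86, 7.83 and 8.29, against 3.75 to 4.67 in the other 15 arrays. Transcripts of ciliated cells stood high in the gonadal array of ad libitum dog 6 (mean of 26 markers 7.77) and again in the subcutaneous array of dog 4 (6.14), against 2.88 to 3.11 in the other 16. Where leaving out these 4 arrays ended a call or moved a printed difference of a member by over 1.5 times, the value without them is given. In whole tissue, fewer cells of a type and less RNA per cell cannot be told apart.

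Of the 13 probe sets, 6 stayed below log2 4 in every array, and for 3 genes the annotation used here lists no other. These genes were ADRB1, the beta-1 receptor (1.24 to 1.27 over the 18 arrays), PRDM16 (1.93 to 1.99) and DIO2 (2.36 to 2.56). The other probe sets that never reached the floor were PPARGC1A (1) at 2.47 to 2.83, PPARGC1A (2) at 2.80 to 3.12 and EBF2 (2) at 3.01 to 3.28. UCP1 and UCP3 (2) were below it in 17 of 18 arrays. UCP3 (1) reached it in 6 arrays and PPARGC1A (3) in 17. Both UCP2 probe sets and EBF2 (1) were above it throughout. The 5 probe sets at or above log2 4 in at least 4 arrays, which stand for 4 genes (UCP2, UCP3, PPARGC1A and EBF2), entered the tests, with 21484 probe sets in all. A value below the floor on such an array does not show that the transcript was absent.

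**Figure D1:**
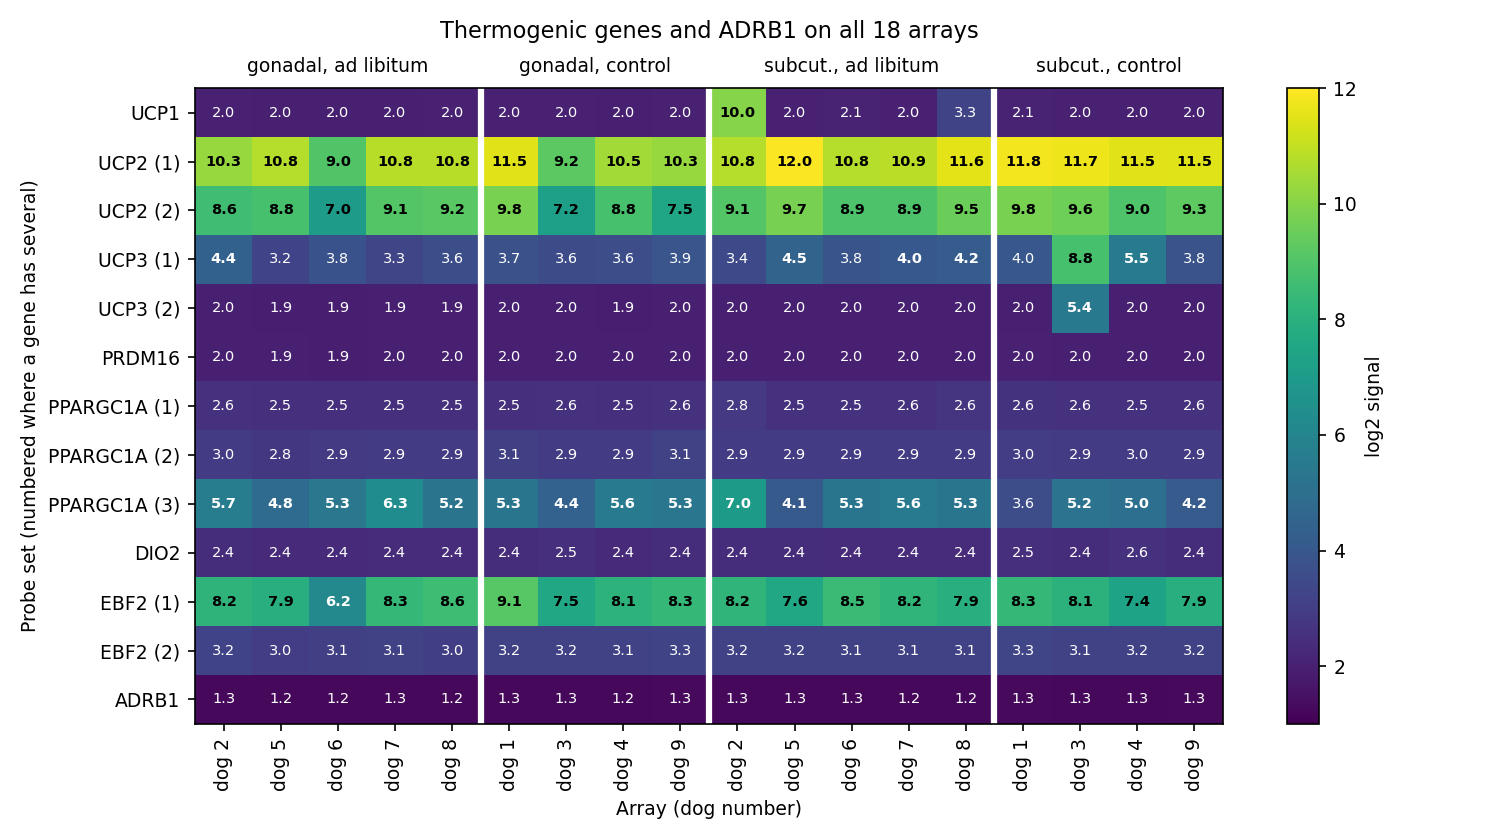
Log2 signal of the 13 probe sets (rows) in the 18 arrays (columns, grouped by depot and feeding and numbered by dog), with values of at least 4 in bold. The rows for PRDM16, DIO2 and ADRB1 are flat and low, UCP2 and EBF2 (1) are high throughout, and UCP1 has 1 high cell, the subcutaneous array of dog 2 at 10.01.

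UCP1 was below the floor in 17 of the 18 arrays and well above it in 1. In gonadal fat it read 2.01, 1.98, 1.96, 1.99 and 1.99 in ad libitum dogs 2, 5, 6, 7 and 8, against 2.00, 2.01, 1.98 and 2.02 in control dogs 1, 3, 4 and 9. In subcutaneous fat it read 10.01, 2.01, 2.09, 2.00 and 3.25 in the same ad libitum dogs, against 2.08, 2.00, 2.01 and 2.01 in the controls. The subcutaneous array of dog 2 alone was high, 6.01 above the floor, under which the other 8 subcutaneous arrays lay, while the gonadal fat of the same dog stood with the rest. UCP1 did not pass the filter, so no group difference was tested.

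UCP2, a relative of UCP1 that is present in many tissues and in macrophages and whose part in heat production is doubtful, was well above the floor in all 18 arrays. Its probe set UCP2 (1) read 10.32, 10.77, 9.00, 10.83 and 10.81 in gonadal fat of ad libitum dogs 2, 5, 6, 7 and 8, and 11.51, 9.23, 10.47 and 10.31 in gonadal fat of control dogs 1, 3, 4 and 9. In subcutaneous fat it read 10.77, 11.96, 10.78, 10.88 and 11.57 in the ad libitum dogs, against 11.79, 11.70, 11.50 and 11.45 in the controls. The subcutaneous control dogs were the highest group, with the narrowest spread, and overlapped with the ad libitum dogs, and the gonadal groups overlapped widely.

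UCP2 (2) followed UCP2 (1) across the arrays (r = 0.931 over 18 arrays of 9 dogs, a description). It averaged 8.54 ± 0.87 in gonadal ad libitum fat and 8.33 ± 1.19 in gonadal control fat, and 9.23 ± 0.38 and 9.40 ± 0.36 in subcutaneous ad libitum and control fat (SD, n = 5, 4, 5 and 4). For UCP2 (1) the group means, from low to high, were 10.35 ± 0.78 (gonadal ad libitum), 10.38 ± 0.93 (gonadal control), 11.19 ± 0.54 (subcutaneous ad libitum) and 11.61 ± 0.16 (subcutaneous control). Each pair of neighbours in that order differed by less than 1 SD of the wider group.

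Within each dog UCP2 (1) was lower in gonadal than in subcutaneous fat in 9 of 9 dogs. The gonadal minus subcutaneous difference was smallest in dog 7 at -0.05 and dog 1 at -0.28, and largest in dog 3 at -2.47, dog 6 at -1.77 and dog 5 at -1.18. For UCP2 (2) the difference had the same sign in 7 of 9 dogs, with dogs 1 and 7 the exceptions. The size of the depot difference varied widely between dogs. Dogs 2, 3, 4 and 6 each have 1 array that holds muscle or ciliated-cell RNA, in dog 3 the subcutaneous and in dog 6 the gonadal one. The gonadal array of dog 3 also had the lowest gonadal mean of adipocyte markers, 10.49, and the highest of pericyte and smooth muscle markers, 9.81. Their part in the differences was not tested.

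**Figure D2:**
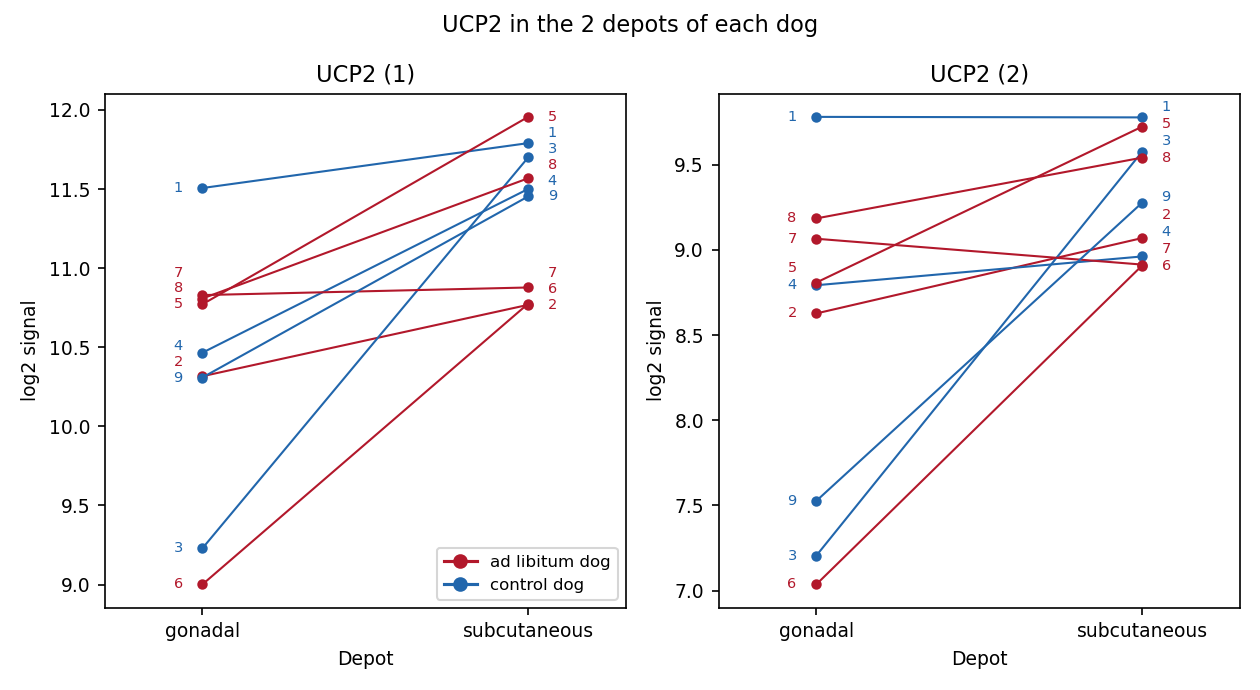
Log2 signal of both UCP2 probe sets in gonadal and subcutaneous fat, 1 line per dog, red for ad libitum and blue for control dogs, numbers giving the dog. In the left panel all 9 lines run up from gonadal to subcutaneous fat, those of dogs 3 and 6 most steeply. The subcutaneous array of dog 3 holds muscle RNA and the gonadal array of dog 6 ciliated-cell RNA.

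Tested within each feeding group, neither UCP2 probe set passed an adjusted p of 0.05. UCP2 (1) differed between gonadal and subcutaneous fat by -0.84 ± 0.40 in ad libitum dogs (log2 difference ± standard error, 95% interval -1.69 to -0.0010, limma adjusted p = 0.212) and by -1.23 ± 0.45 in control dogs (-2.18 to -0.29, adjusted p = 0.133). Without the 4 arrays that hold muscle or ciliated-cell RNA the difference in ad libitum dogs was -0.39. Of the 5 tested member probe sets 0 passed in either group, while 7.19% of all tested probe sets passed in ad libitum dogs and 2.92% in controls. At an unadjusted p under 0.05 were 1 member probe set in ad libitum dogs and 3 in controls, beside 23.5% and 20.4% of all tested probe sets. The comparison averaged over both feeding groups, added after these values were seen, gave -1.04 ± 0.30 for UCP2 (1) (-1.67 to -0.41, adjusted p = 0.0262) and -0.88 ± 0.34 for UCP2 (2) (adjusted p = 0.0862). UCP2 (1) was the 1 member probe set of 5 that passed, where 16.6% of all tested probe sets passed. Without the 4 arrays that hold muscle or ciliated-cell RNA it stood at -0.82 and no longer passed (adjusted p = 0.108), and it also missed the threshold without dog 3 (0.0821), 4 (0.0574), 8 (0.0525) or 9 (0.0535).

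Marker means of other cell types also differed between depots, some in the direction of UCP2 and some against it. The mean of 11 fibroblast and progenitor markers was 10.35 ± 0.31 in gonadal ad libitum fat and 10.44 ± 0.43 in gonadal control fat, against 11.30 ± 0.72 and 12.15 ± 0.42 in subcutaneous ad libitum and control fat (SD). The mean of 20 macrophage markers was 7.19 and 7.16 in the gonadal groups and 8.23 and 8.04 in the subcutaneous ones. Mesothelial markers (8) ran the other way, at 7.01 and 6.73 in gonadal ad libitum and control fat, against 3.55 and 4.33 in subcutaneous fat, as did 9 markers of pericytes and smooth muscle, at 8.56 and 8.96, against 7.25 and 7.58. Among subcutaneous control arrays the mesothelial mean was 6.65 in dog 4 and 3.39 to 3.63 in the others. The part of these cell types in the UCP2 difference was not tested. The genes whose values followed UCP2 (1) most closely over the 18 arrays were CFD (r = 0.960), which encodes the adipocyte product adipsin, CD248 (r = 0.925), a stromal surface protein, and MFAP5 (r = 0.918), a microfibril protein. After the 4 group means were taken out they were CFD (r = 0.929), PIR (r = 0.907) and CD248 (r = 0.896). These arrays share dogs and depots, so the values are a description.

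For feeding, UCP2 did not pass in either depot. UCP2 (1) differed by -0.03 ± 0.42 in gonadal fat (-0.93 to 0.86, adjusted p = 1.00) and by -0.42 ± 0.42 in subcutaneous fat (-1.32 to 0.47, adjusted p = 0.561), ad libitum minus control. The intervals leave room for nearly 1 log2 unit either way in gonadal fat, where the difference was 0.43 without the 4 arrays that hold muscle or ciliated-cell RNA.

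UCP3 is the uncoupling protein of skeletal muscle and brown fat, and here its 2 highest values lay in arrays that hold muscle transcripts. UCP3 (1) read 4.40, 3.21, 3.77, 3.31 and 3.63 in gonadal ad libitum dogs 2, 5, 6, 7 and 8, against 3.72, 3.56, 3.58 and 3.90 in gonadal control dogs 1, 3, 4 and 9. In subcutaneous fat it read 3.41, 4.48, 3.84, 4.04 and 4.19 in the ad libitum dogs, against 3.99, 8.80, 5.53 and 3.83 in the controls. The 2 high readings, 8.80 in dog 3 and 5.53 in dog 4, are the 2 subcutaneous arrays with muscle transcripts, and 4.40 is the gonadal array with them. The 3 other values above the floor, up to 4.48 in dog 5, were in subcutaneous ad libitum arrays with a muscle mean of at most 4.67. UCP3 (2) reached the floor only in the subcutaneous array of dog 3, at 5.45, and lay at 1.92 to 1.99 elsewhere, the other 2 arrays with muscle transcripts included.

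**Figure D3:**
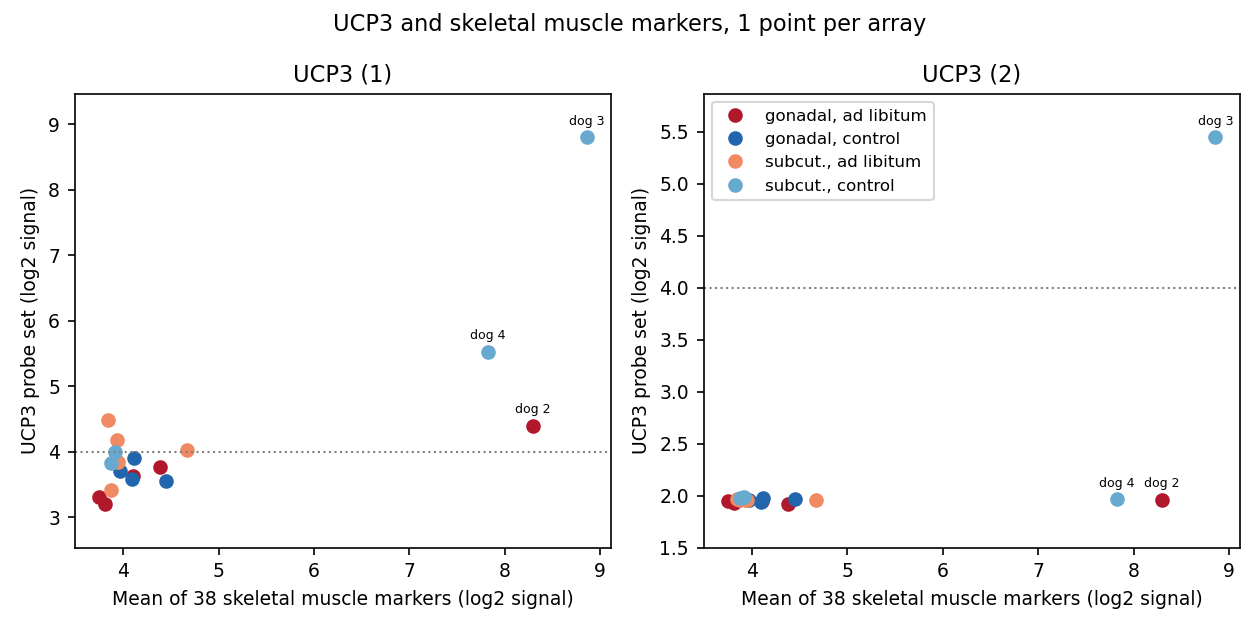
Log2 signal of both UCP3 probe sets against the mean of 38 skeletal muscle markers, 1 point per array, the dotted line at log2 4. The highest UCP3 point in both panels, the subcutaneous array of dog 3, also has the highest muscle mean, 8.86.

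Ad libitum minus control, UCP3 (1) differed by -1.55 ± 0.70 in subcutaneous fat (-3.02 to -0.07, unadjusted p = 0.0406, adjusted p = 0.192), and by 0.081 without the 4 arrays that hold muscle or ciliated-cell RNA, which leaves 5 ad libitum and 2 control dogs. Gonadal minus subcutaneous fat of control dogs, UCP3 (1) differed by -1.85 ± 0.73 (-3.40 to -0.30, adjusted p = 0.170). With gonadal values under the floor set to it, this was 2.90-fold. There 0 of 4 gonadal and 2 of 4 subcutaneous arrays reached the floor, so 2.90-fold is no firm lower bound. Without the 4 arrays that hold muscle or ciliated-cell RNA the log2 difference was -0.22. The 3 genes most like UCP3 (1) over the 18 arrays were TCAP (r = 0.916), a sarcomere protein, SMPX (r = 0.905), a small muscle protein, and TOM1L2 (r = 0.892). TCAP and SMPX are among the 38 muscle markers and, like UCP3 (1), highest in the subcutaneous array of dog 3. UCP3 (1) reached the floor in only 6 arrays, so the r values are a description. The list of 38 muscle markers that defines the arrays with muscle transcripts was chosen with earlier results of these data known.

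**Figure D4:**
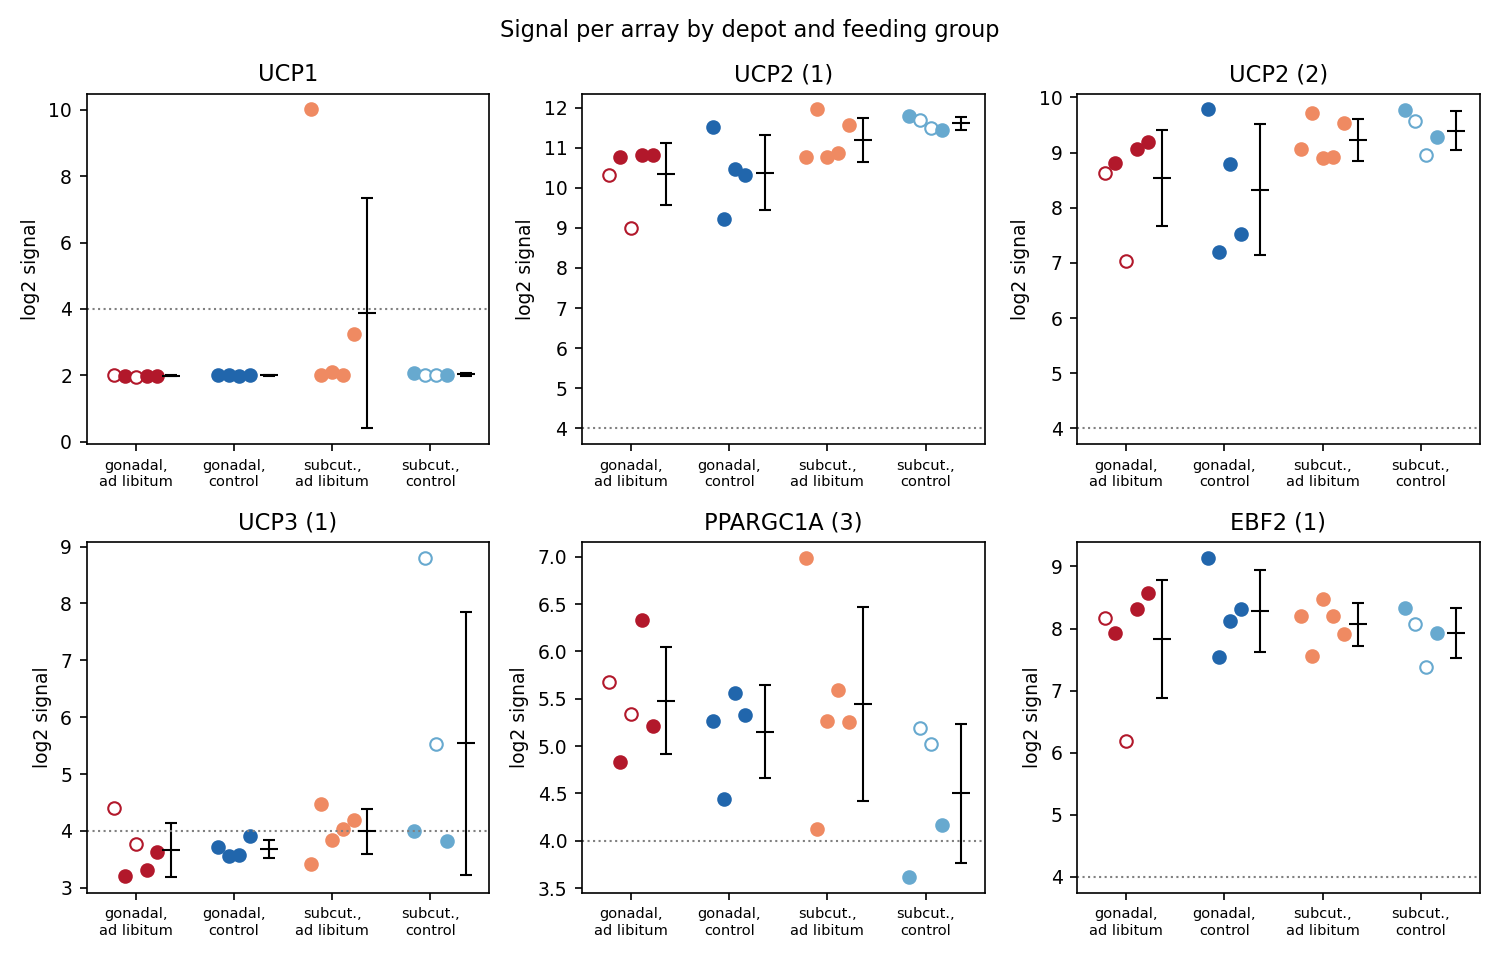
Log2 signal of 6 member probe sets in the 4 groups, 1 point per dog, black marks for the mean ± SD, open points for the 4 arrays that hold muscle or ciliated-cell RNA and a dotted line at log2 4. UCP1 shows 1 point at 10.01 and the rest near the bottom, UCP2 sits lower in the 2 gonadal groups, and the UCP3 points above 5 are open.

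PPARGC1A (3), the only probe set of this coactivator to reach the floor, did so in 17 of 18 arrays. It read 5.68, 4.84, 5.34, 6.34 and 5.21 in gonadal ad libitum dogs 2, 5, 6, 7 and 8, against 5.27, 4.44, 5.57 and 5.33 in gonadal control dogs 1, 3, 4 and 9. In subcutaneous fat it read 6.99, 4.12, 5.27, 5.59 and 5.26 in ad libitum dogs, against 3.62, 5.19, 5.02 and 4.17 in controls. Dog 2 had the highest subcutaneous value and control dog 1 the lowest, and the 2 subcutaneous groups overlap. The ad libitum minus control difference was 0.95 ± 0.47 in subcutaneous fat (-0.05 to 1.94, adjusted p = 0.231) and 0.33 ± 0.47 in gonadal fat (-0.66 to 1.32, adjusted p = 1.00). The subcutaneous difference was 0.56 without the subcutaneous array of dog 2 (adjusted p = 0.504) and 1.55 without the 4 arrays that hold muscle or ciliated-cell RNA (adjusted p = 0.276). Gonadal minus subcutaneous it was 0.03 ± 0.44 in ad libitum and 0.65 ± 0.50 in control dogs, with adjusted p = 0.973 and 0.494. Without those 4 arrays the depot differences were 0.016 and 1.26 (adjusted p = 0.989 and 0.356).

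The other 2 probe sets of PPARGC1A, always below the floor, give no reading against which to check the third. The genes that followed PPARGC1A (3) most closely across the 18 arrays were SLC25A11, the oxoglutarate carrier (r = 0.830), KEAP1, which holds back NRF2 (r = 0.820), and NDUFC2, a complex I subunit (r = 0.801). With group means taken out they were NFU1 (r = 0.864), an iron-sulphur cluster protein, IDH3B (r = 0.852), of the citric acid cycle, and BOLA3 (r = 0.815), of iron-sulphur cluster assembly.

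EBF2 (1), for the transcription factor of brown and beige precursors in mice, was present in every array. It read 8.17, 7.93, 6.19, 8.32 and 8.57 in gonadal ad libitum dogs 2, 5, 6, 7 and 8, against 9.14, 7.54, 8.11 and 8.31 in gonadal control dogs 1, 3, 4 and 9. In subcutaneous fat it read 8.20, 7.56, 8.48, 8.20 and 7.92 in ad libitum dogs, against 8.33, 8.07, 7.38 and 7.93 in controls. Only the gonadal array of dog 6, which holds ciliated-cell transcripts, stood apart, at 6.19. The ad libitum minus control difference was -0.44 ± 0.41 in gonadal (-1.31 to 0.43, adjusted p = 1.00) and 0.14 ± 0.41 in subcutaneous fat (-0.72 to 1.01, adjusted p = 0.863). Without the 4 arrays that hold muscle or ciliated-cell RNA these were -0.0026 and -0.059. Its closest genes were EXOC6 (r = 0.837), ELL2 (r = 0.819) and GPATCH11 (r = 0.811), and over the residuals ETF1 (r = 0.950), DDHD2 (r = 0.893) and WIPF1 (r = 0.884).

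None of the 5 tested probe sets passed the threshold for feeding. By limma 0 of 5 passed in gonadal fat, where 0% of all tested probe sets passed. There 0 members had an unadjusted p under 0.05, beside 2.47% of all tested probe sets. In subcutaneous fat 0 of 5 passed, against 2.36% of all tested probe sets, with 1 at an unadjusted p under 0.05, against 23.7%. The interaction, which compares the response to feeding between depots, called 0 of 5 as well, at a background of 0%. It had 0 of 5 at an unadjusted p under 0.05, against 6.26% of all tested probe sets. It was 0.39 ± 0.60 for UCP2 (1), -0.62 ± 0.66 for PPARGC1A (3) and -0.58 ± 0.58 for EBF2 (1), and without those 4 arrays 0.86, -1.24 and 0.057.

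The members did not move as a block across arrays. UCP2 (1) and EBF2 (1) had r = 0.452 and UCP2 (1) and PPARGC1A (3) had r = -0.272 over the 18 arrays, which share dogs and depots, as a description. The ciliated-cell array of dog 6 was the lowest of the 5 gonadal ad libitum arrays for both UCP2 probe sets and for EBF2 (1).

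Genes of the same pathways were read from lists drawn up with earlier results of these data known. Among the alpha-adrenergic receptors ADRA1A, ADRA1B, ADRA2A and ADRA2B stayed below log2 4 in all 18 arrays, as did TH, which makes catecholamines, and NRIP1, a corepressor that holds back thermogenic genes. ADRA2C, an inhibitory receptor, reached the floor in 13 arrays, from 2.29 to 5.50. Downstream of the receptors the levels were well above the floor, 12.31 to 13.18 for the stimulatory G protein GNAS and 9.59 to 12.40 for the protein kinase A subunit PRKAR2B. Of 31 tested genes of adrenergic receptors and cAMP signalling, 2 were higher and 0 lower in gonadal than in subcutaneous fat of ad libitum dogs, and 1 was higher in control dogs. They were PDE8B, which breaks down cAMP, at least 8.75-fold higher in ad libitum dogs (adjusted p = 0.000119, 1 of 5 subcutaneous arrays at the floor) and 3.14 ± 0.45 higher in controls (adjusted p = 0.00136), and the inhibitory G protein GNAI1, 1.01 ± 0.26 higher in ad libitum dogs (adjusted p = 0.0271). Over all 8656 genes, 234 were higher and 411 lower in ad libitum dogs and 99 and 156 in controls.

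Among genes known from brown and beige fat levels ranged from high in every array to below the floor throughout. CIDEA, a lipid droplet protein, read 13.85 to 15.23 and PDK4, which spares glucose, 11.78 to 13.84 in every array, while ELOVL3, LHX8, TBX1, TMEM26 and TNFRSF9 stayed below the floor in all 18. The mean of 7 brown fat markers, UCP1 left out as a member, lay between 7.05 and 7.84 in the 18 arrays. It averages the high CIDEA and PDK4 with ELOVL3 and LHX8, which never reached the floor, so its level is no measure of brown fat cells. In subcutaneous fat 0 of 17 tested genes passed for feeding (median difference 0.11, against 0.00 over all genes), where 2.31% of all genes passed. An unadjusted p under 0.05 was seen for 6 of the 17, and for 23.7% of all tested probe sets. CIDEA differed by 0.50 ± 0.28 (adjusted p = 0.284). In gonadal fat of ad libitum dogs FFAR4, a fatty acid receptor, was 2.45 ± 0.52 higher than in subcutaneous fat (adjusted p = 0.00986), the 1 of 17 that passed, where 7.45% of all 8656 genes passed.

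Of 36 partners and regulators of PRDM16, EBF2 and PGC-1alpha, 1 rose with feeding in subcutaneous fat and 0 fell, beside 170 and 30 of 8656 genes. It was SIRT5, a mitochondrial deacylase, at 12.70 in ad libitum and 11.73 in control dogs (0.97 ± 0.18, adjusted p = 0.0206). SIRT5 was also lower in gonadal than in subcutaneous fat of ad libitum dogs (-0.69 ± 0.17, adjusted p = 0.0208), and PPRC1, a relative of PGC-1alpha, was lower in gonadal fat of control dogs (-0.92 ± 0.22, adjusted p = 0.0327). Without the 4 arrays that hold muscle or ciliated-cell RNA none of these 3 calls held (SIRT5 adjusted p = 0.138 for feeding and 0.103 for depot, PPRC1 0.0521). ESRRA, the nuclear receptor through which PGC-1alpha works, was at least 1.47-fold higher with ad libitum feeding in subcutaneous fat but missed the threshold (adjusted p = 0.0752), with no control array at the floor. PPARGC1B differed by 0.74 ± 0.38 (adjusted p = 0.241), or by at least 0.48 as a bound, with 2 of 4 control arrays at the floor. EBF1, a relative of EBF2 present in all arrays, differed by -0.59 ± 0.31 (adjusted p = 0.254).

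Lipolysis is the step that feeds thermogenesis. All 8 tested lipolysis genes had positive ad libitum minus control differences in subcutaneous fat (median 1.04, against 0.00 over all genes). Of them 0 passed, where 2.31% of all genes did. An unadjusted p under 0.05 was seen for 5, and for 23.7% of all tested probe sets. In the same comparison the mean of 16 adipocyte markers was 11.87 ± 0.77 in ad libitum and 10.83 ± 0.53 in control dogs, and that of the 11 fibroblast and progenitor markers 11.30 and 12.15 (SD, n = 5 and 4), and their part in these differences was not tested. LIPE, PNPLA2, PLIN1, AQP7 and FABP4, and DGAT2 below, are themselves among the 16 adipocyte markers, so these are not separate readings. LIPE, hormone-sensitive lipase, differed by 1.80 ± 0.63 (adjusted p = 0.113) and PNPLA2, the first lipase of the pathway, by 0.56 ± 0.50 (adjusted p = 0.510). LIPA, a lysosomal lipase, was lower in gonadal than in subcutaneous fat of ad libitum dogs (-1.32 ± 0.37, adjusted p = 0.0436, or 0.102 without the 4 arrays that hold muscle or ciliated-cell RNA). Of 14 genes of creatine, calcium and lipid cycling 2 rose and 0 fell with feeding in subcutaneous fat, beside 170 and 30 of 8656 genes. They were PCK1, which makes glycerol backbone, by 2.36 ± 0.52 (adjusted p = 0.0323), and DGAT2, which makes triglyceride, by 2.35 ± 0.56 (adjusted p = 0.0410). Without those 4 arrays neither passed, at 2.16 (adjusted p = 0.0864) and 2.00 (adjusted p = 0.164). The calcium pump gene ATP2A2 differed by -0.34 ± 0.40 (adjusted p = 0.636). On the arrays' actin controls the 3' end exceeds the 5' end by more where RNA is shorter, and this difference was 3.49 ± 0.77 in subcutaneous ad libitum arrays and 4.75 ± 1.02 in subcutaneous control arrays (SD). In gonadal arrays it was 3.31 ± 0.91 in ad libitum and 2.91 ± 0.91 in control dogs, so in controls it differed between depots too. Depot differences whose sign turned with this signal as a covariate are given at the end. With the covariate 1 of 21484 probe sets passed for feeding in subcutaneous fat, and 5 passed without the 4 arrays that hold muscle or ciliated-cell RNA, against 506 in the fit reported here.

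The next counts, from ad libitum dogs, stand beside 234 genes higher and 411 lower of 8656, or 7.45% in all. The thyroid hormone receptor THRA was 1.28 ± 0.22 higher in gonadal fat (adjusted p = 0.00304), the 1 of 11 thyroid genes that passed, and THRB differed by 0.25 ± 0.20 (adjusted p = 0.482). Of 15 mitochondrial carriers 2 were lower in gonadal fat, SLC25A12 (-0.82 ± 0.17, adjusted p = 0.00918) and SLC25A5, an ADP/ATP carrier (-1.09 ± 0.31, adjusted p = 0.0418). SLC25A14 and SLC25A27, relatives of UCP1, differed by 0.07 ± 0.39 and 0.92 ± 0.35 (adjusted p = 0.938 and 0.122). PTGER3, a receptor that lowers cAMP, was 1.59 ± 0.46 higher (adjusted p = 0.0480), 1 of 5 tested, and PLN, phospholamban, was 3.07 ± 0.86 higher (adjusted p = 0.0404, or 0.0975 without the 4 arrays that hold muscle or ciliated-cell RNA), 1 of 14.

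Among 6 tested genes of sympathetic nerve and catecholamine handling 1 was higher and 1 lower in gonadal fat of ad libitum dogs, where 7.45% of all genes passed. In gonadal fat of controls 2 were higher, where 2.95% of all genes passed. MAOB, which breaks down monoamines, was 1.35 ± 0.25 higher in gonadal than in subcutaneous fat of ad libitum dogs (adjusted p = 0.00447), and SLC18A2, a monoamine vesicle transporter, was lower (-0.88 ± 0.26, adjusted p = 0.0477, or 0.0568 without the 4 arrays that hold muscle or ciliated-cell RNA). In control dogs UCHL1, a neuronal hydrolase, was 2.77 ± 0.71 higher (adjusted p = 0.0467) and SLC22A3, which takes up catecholamines, at least 3.99-fold higher (adjusted p = 0.0171, 1 of 4 subcutaneous arrays at the floor). Feeding called 0 genes of any of the lists in gonadal fat, where 0 of all 8656 genes passed.

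The subcutaneous array of dog 2, the 1 array with UCP1 above the floor, was then read for the other genes. The genes named in this paragraph and the next were chosen after their values were seen, and with 1 array there is no test. Values below the floor were set to it. Against the median of the other 8 subcutaneous arrays, the difference was at least 6.01 for UCP1, 1.88 for PPARGC1A (3), 0.20 for EBF2 (1), -0.77 for UCP2 (1) and -0.34 for UCP2 (2). That array was the highest of the 9 for 21.8% of 8656 genes and the lowest for 24.9%, so a high rank in it is common. The other dogs were highest for 5.58% to 13.3%. Its mean over adipocyte markers was the highest of the 9, at 12.36, and that over fibroblast and progenitor markers the lowest, at 10.38. Its muscle mean was 3.87, and its actin 3' minus 5' signal was 2.61, the lowest of the 9, against 2.77 to 5.72. Their part in the values below was not tested.

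Against the other 17 arrays UCP1 was the gene by which this array exceeded them most. The next were G6PC1, a glucose-6-phosphatase (6.92, next highest 3.33), and LCN2, an iron-binding secreted protein (11.91, next highest 9.61). After them came DTL (6.52, next highest 4.24), SCML2 (8.13, next highest 5.89) and FABP3, a fatty acid carrier of muscle and brown fat (8.13, next highest 5.94). In all 6 genes exceeded the other 17 by more than 2, a count that ran from 0 to 107 in the other arrays. Of 15 tested mitochondrial carriers it was the highest of the 9 subcutaneous arrays for 10 (66.7%), and their median difference was 0.50. Lipolysis genes had a median of 1.34 (8 of 8 positive) and creatine, calcium and lipid cycling genes 0.57 (9 of 14). Of these lists LIPE, PNPLA2, PLIN1, AQP7, FABP4, DGAT2 and GPD1 are also adipocyte markers, so they are no reading separate from the adipocyte mean of this array. Partners and regulators of PRDM16, EBF2 and PGC-1alpha had a median of -0.20 (11 of 36 positive), and the brown and beige list 0 (8 of 17), as did all genes (0, 4099 of 8656). In the brown and beige list this array was the highest of the 9 for 6 genes and the lowest for 5. COX7A1, a subunit of cytochrome oxidase, was highest at 10.59, next 10.14, and PPARA, a receptor that drives fatty acid oxidation, at 7.28, next 6.87. BMP7, a growth factor that favours brown fat, was lowest at 4.38, against a median of 7.67, and NTRK3, a neurotrophin receptor, lowest at 4.63, against 6.79.

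**Figure D5:**
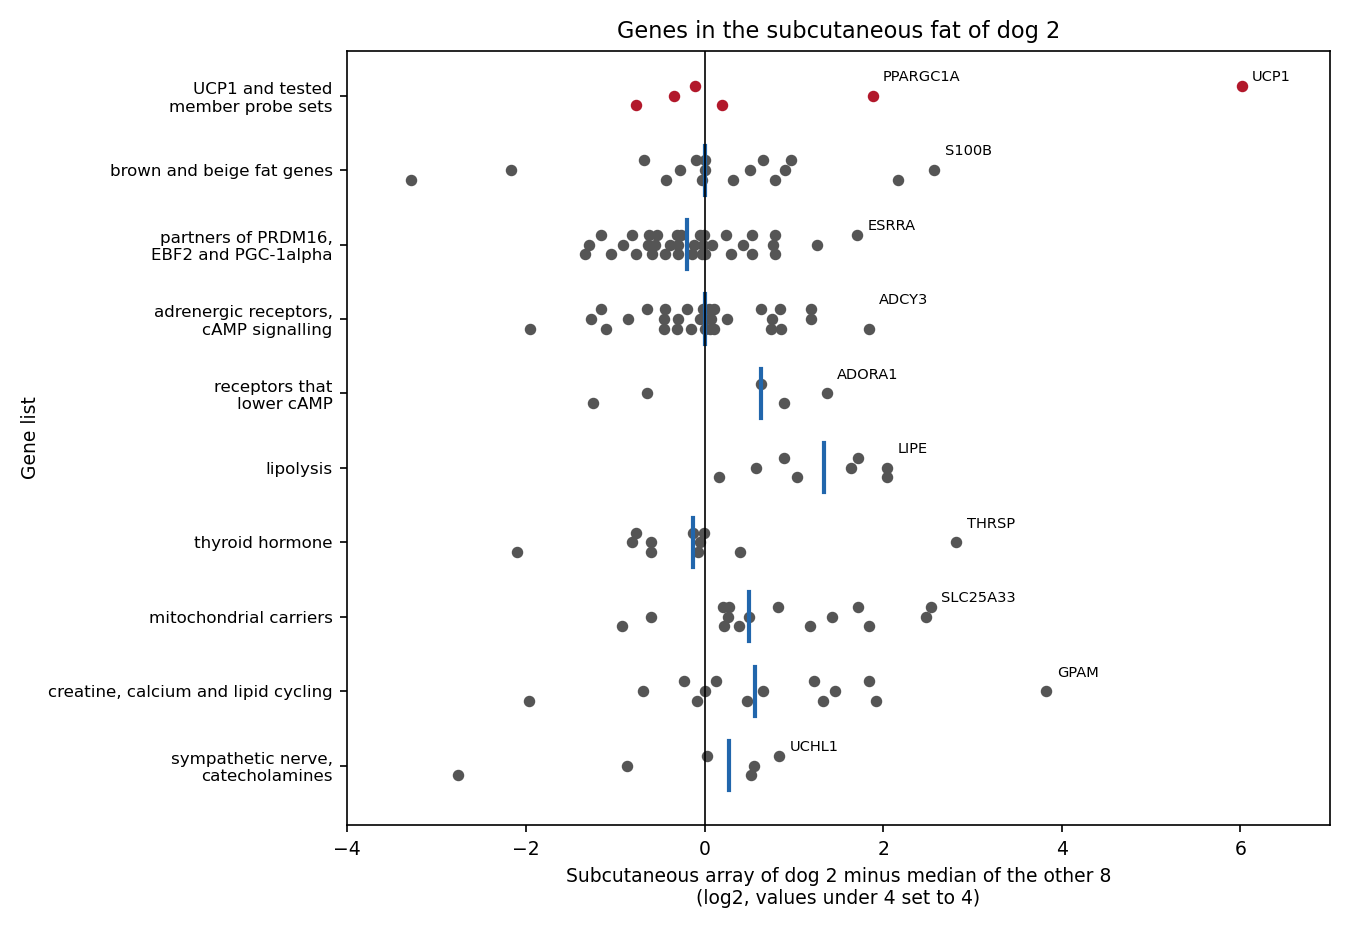
Log2 difference of the subcutaneous array of dog 2 from the median of the other 8 subcutaneous arrays, for the member probe sets and the genes of 9 pathway lists, with a blue bar at each list's median. Values under log2 4 were set to it. UCP1 stands alone at 6.01, a lower bound, lipolysis genes lie to the right of 0, and the brown and beige list is centred on 0.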

How the data were processed

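Total RNA from fat of 9 dogs was taken with Trizol and hybridised to 18 arrays, per the labels. The authors' deposited values are expression signals made with GCRMA, per the submitters' processing notes, and are read as log2. The base is not stated, nor are version and options given in the sources used here. All columns matched a sample. Members, lists and markers were chosen with earlier results of these data known. The genes named are all members, for each tested member the 3 genes of highest r, and from each list the genes past the threshold (at most 6) plus 18 fixed ones where measured. Probe sets with log2 of at least 4 in at least 4 arrays were fitted with limma 3.58.1 in R 4.3.3 (4 group means, 14 residual degrees of freedom, no block). Two-sided p-values were adjusted by Benjamini-Hochberg over 21484 probe sets, with 0.05 as threshold. For bounds, the dimmer group's arrays below the floor were set to it one by one before averaging, and those of the brighter group stayed as read. A gene in a list stands by its probe set of highest mean. The dogs pair the depots, as the animal number in the labels shows, and the correlation of each dog's 2 deviations from group means ran from -0.05 to 0.53. Alternatives changed filter, normalization, moderation, dog block, actin covariate and arrays included. The fit was tested on simulated data. Depot averaged over feeding groups, and setting values under log2 4 to log2 4 in the readings of dog 2, were added after values were seen. The number of arrays limits precision.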

Additional observations from a re-analysis of the deposited data

Results flagged for a closer look

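A value far from the others of its group, by the gap to the nearest divided by the range, was looked for in the 21 groups of values in which at least 1 array reaches log2 4. The cut-off is one that chance would pass in about 1 of 20 independent groups. These groups share arrays and genes, and those of UCP1 and UCP3 (2) entered only through the value then flagged. The number of flagged values therefore cannot be set against that rate. Flagged were 5 values, from 3 arrays. UCP1 read 10.01 in the subcutaneous array of ad libitum dog 2, the other 4 of its group being below the floor (next 3.25). In the gonadal array of ad libitum dog 6, which holds ciliated-cell transcripts, UCP2 (1) was lowest at 9.00 (next 10.32), UCP2 (2) at 7.04 (next 8.63) and EBF2 (1) at 6.19 (next 7.93). UCP3 (2) read 5.45 in the subcutaneous array of control dog 3, which holds muscle transcripts, with the other 3 of its group below the floor (next 1.99). The causes were not tested.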

How the results depend on the processing

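No member passed in the 5 designed comparisons in any alternative run. The smallest adjusted p of a member over them was 0.645 for gonadal feeding, 0.0643 for subcutaneous feeding, 0.0968 for depot in dogs fed ad libitum, 0.0521 for depot in controls and 0.549 for the interaction. For depot averaged over feeding groups 1 member passed, against 0 with no filter (adjusted p = 0.0622) and without the 4 arrays that hold muscle or ciliated-cell RNA (0.107), 2 with the actin signal as a covariate (0.00694), and 0 to 2 leaving out 1 dog. Pairing by dog changed no member's call: with the dog as a random or fixed replicate block UCP2 (1) had adjusted p = 0.0121 and 0.0170 for that average. A fixed block cannot be estimated for feeding, which no dog received both ways, a fit to only a comparison's arrays was not applicable to the average or the interaction, and the filter at log2 6 leaves out UCP3 and PPARGC1A.

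None of the differences whose sign turned had passed the test. For the interaction of UCP3 (1) only the group means above are given. Without the muscle and ciliated-cell arrays the other differences that turned were UCP2 (1) for feeding in gonadal fat (0.43), UCP3 (1) for feeding in subcutaneous fat (0.081), and EBF2 (1) for feeding in subcutaneous fat (-0.059), depot in ad libitum dogs (0.20) and the interaction (0.057). With the actin covariate they were UCP2 (1) for feeding in gonadal fat (0.11), PPARGC1A (3) for depot in control dogs (-0.0061), ad libitum dogs (-0.029) and on average (-0.018), and EBF2 (1) for feeding in subcutaneous fat (-0.46), depot in control dogs (-0.53), on average (-0.42) and the interaction (0.21). PPARGC1A (3) for depot in ad libitum dogs was -0.053 after quantile normalization again and -0.030 after centring. Leaving out 1 dog moved UCP2 (1) from -0.41 to 0.34 for feeding in gonadal fat and from -0.023 to 0.71 for the interaction, and UCP2 (2) from -0.16 to 0.70 and -0.048 to 0.74. PPARGC1A (3) for depot in ad libitum dogs ran from -0.14 to 0.37, and EBF2 (1) from -0.040 to 0.28 for feeding in subcutaneous fat, -0.46 to 0.28 for depot in ad libitum dogs and -0.054 to 0.31 on average. The cause was not tested.

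The counts over all probe sets moved more. For feeding in subcutaneous fat 506 passed, against 173 with no filter, 60 with only its arrays, 5 without the muscle and ciliated-cell arrays, 1 with the actin covariate and 36 without the subcutaneous array of dog 2, and 3 (without dog 1) to 2703 (without dog 5) leaving out a dog. For depot in control dogs 627 passed, against 1346 with the random block and 199 with the actin covariate, and 143 to 1050 leaving out a dog. In ad libitum dogs 1545 passed, against 2495 with the random block and 984 at the lowest, and 497 to 1620 leaving out a dog.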
